A study of Mus musculus with 6 samples.

Results

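The Ly6 genes described here are Ly6a, Ly6c1, Ly6c2, Ly6d, Ly6e, Ly6g and Ly6i, taken by symbol, 7 of the 55487 gene identifiers in the tables. They were compared in sorted CD45+ cells, that is, total hematopoietic cells, of the mesenteric lymph node (mLN, which drains the gut) and of the spleen, with 3 libraries of polyA RNA from each tissue. All mice were wild type (WT) of strain C57BL6/J and all cells were freshly prepared. The labels used here do not tie the replicates of a tissue to different mice. The spread behind every p-value is therefore that between libraries, and it may be technical.

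Ly6 proteins are small surface proteins built on a disulfide-rich fold shared with the urokinase receptor, and most are held in the membrane by a glycosylphosphatidylinositol (GPI) lipid anchor. Several serve as everyday antibody targets for sorting mouse leukocytes. Ly6a encodes Sca-1, known from blood stem cells and many T cells. Ly6c1 and Ly6c2 both encode the antigen Ly-6C, known from monocytes, plasma cells, plasmacytoid dendritic cells, memory CD8 T cells and endothelium. Ly6g encodes the neutrophil antigen Ly-6G, and Ly6d marks B-lineage cells. Ly6e is widely expressed and is known as an interferon-inducible gene that acts on virus entry, and Ly6i is a close relative of Ly6a.

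Libraries held 12584244 to 18119551 expected counts. Log2 CPM (counts scaled to a library of 1000000) correlated across genes at 0.984 to 0.985 between mLN libraries and at 0.988 to 0.989 between spleen libraries, against 0.934 to 0.937 between the tissues. Ptprc, which encodes CD45 itself, stood at 2675 ± 35 CPM in mLN and 2191 ± 39 CPM in spleen (SD, n = 3 each). All 17 genes of a pan-T list were higher in mLN and all 14 genes of a pan-B list lower. In bulk RNA, fewer cells of a type and less RNA per cell cannot be told apart, and this holds for every difference below.

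Ly6c1 and Ly6c2 were higher in mLN, Ly6d, Ly6a and Ly6e lower, and Ly6g had no counts there at all. Ly6c1 was 6.49-fold and Ly6c2 1.68-fold higher, Ly6d stood at 0.546 of its spleen level, and Ly6a and Ly6e stood at 0.88 and 0.89 of theirs. Ly6i did not pass the test. By edgeR's quasi-likelihood test with an adjusted p under 0.05, 6 of the 7 members were called, beside 45.5% of all 14427 genes tested. Upward calls were made for 2 members (21.8% of all genes) and downward calls for 4 (23.8% of all genes). Called with a change of at least 2-fold were Ly6c1 upward (3.67% of all genes) and Ly6g downward (8.6%). All 7 passed the filter on low counts, Ly6g through its spleen libraries alone. In CPM no member's tissues overlapped, as was so for 52.9% of all genes tested.

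**Figure D1:**
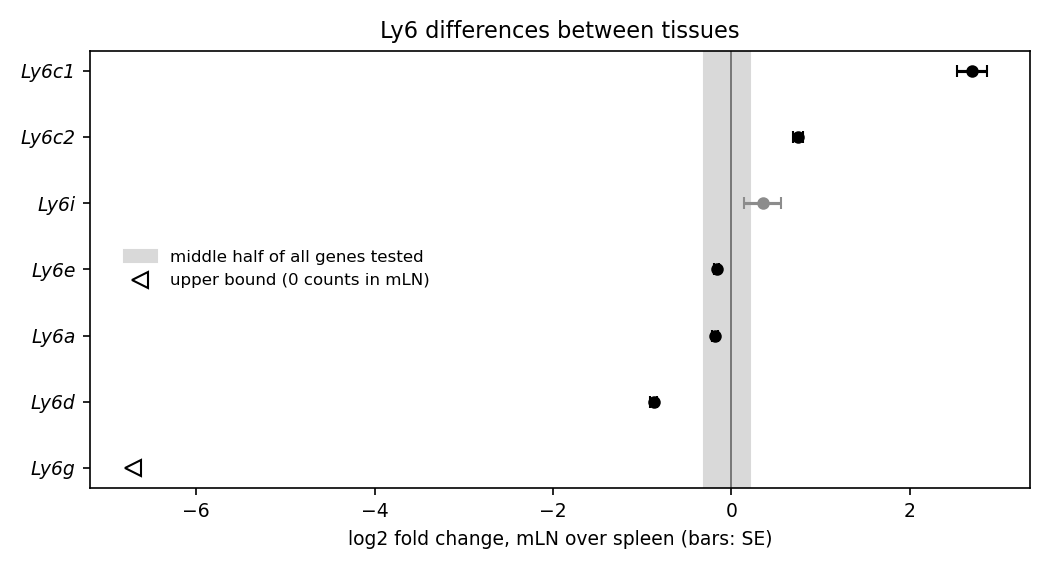
Log2 fold change of each Ly6 gene, mLN over spleen, with its SE (black, called; grey, not called); the grey band holds the middle part of all genes tested, from -0.309 to 0.205. Ly6c1 lies at 2.70 and Ly6c2 at 0.745, Ly6e and Ly6a lie inside the band, and the open triangle gives the bound for Ly6g, at or below -6.71.

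Ly6c1 and Ly6c2 are neighbouring copies on chromosome 15, at 75044018 to 75048830 and 75108158 to 75111970 (GRCm38, minus strand). Their coding sequences of 396 bases differed at 9 positions (97.7% identity), and the counting had to split the reads that fit both. Coding bases 1 to 150 are shown because they hold most of these differences, all of them toward the start of the stretch. It spans introns, over chr15:75047390-75048511 in Ly6c1 and chr15:75110548-75111667 in Ly6c2. Capitals mark the 6 bases that differ between them.
Ly6c1: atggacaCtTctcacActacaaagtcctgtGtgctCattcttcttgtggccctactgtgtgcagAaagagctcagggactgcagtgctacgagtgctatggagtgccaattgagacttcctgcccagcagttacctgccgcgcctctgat
Ly6c2: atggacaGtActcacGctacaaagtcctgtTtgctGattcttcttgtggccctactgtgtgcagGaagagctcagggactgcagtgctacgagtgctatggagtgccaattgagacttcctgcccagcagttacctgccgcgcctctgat
Of all windows of 75 bases along the principal Ly6c1 transcript, 21.3% stood letter for letter in a Ly6c2 transcript, and of windows of 150 bases 5.61%. The read length is not given in the sources used here. Expected counts of both copies were fractional in all 6 libraries and those of the other 5 members in none, at a tolerance of 0.005.

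Ly6c1 stood at 19.08, 18.11 and 16.03 CPM in mLN, against 2.41, 3.05 and 2.75 CPM in spleen. Every mLN library was far above every spleen library. The log2 fold change was 2.70 (SE 0.166, edgeR adjusted p = 1.39e-17), and the gene ranked 25 of the 14427 tested by the size of its rise. These values rest on few reads in spleen, where the expected counts were 42.45, 50.2 and 45.6. In mLN they were 286.41, 321.93 and 198.19.

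Ly6c2, the more abundant copy, stood at 238, 253 and 261 CPM in mLN, against 136, 162 and 150 CPM in spleen. The tissues were again apart, with a log2 fold change of 0.74 (SE 0.0534, edgeR adjusted p = 1.68e-08). Counted as 1 gene, the pair stood at 268 ± 10.2 CPM in mLN and 152 ± 13.2 CPM in spleen (SD, n = 3 each). Its log2 fold change was 0.82 (SE 0.0502, edgeR adjusted p = 4.74e-10), a value that does not depend on how reads were split between the copies.

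The balance within the pair also differed. Ly6c1 took 7.44%, 6.68% and 5.80% of the pair's counts in mLN, against 1.76%, 1.85% and 1.78% in spleen. The log2 ratio of Ly6c1 to Ly6c2 was 1.90 higher in mLN, with libraries apart (exact permutation test, two-sided, p = 0.1 and adjusted p = 0.111 over 10 ratios tested). No lower p than 0.1 can come from 3 libraries against 3, here or in the ratios below. Ly6c2 was the higher copy in every library of both tissues.

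Lists of cells known to carry Ly-6C did not all move with the pair. Of 14 monocyte genes, 11 were lower and 3 higher in mLN, and their summed level was 1067 to 1097 CPM in mLN and 1627 to 1636 CPM in spleen. Among the higher genes were Ms4a4c (log2 fold change 0.25) and Ccr2 (0.15), the second a chemokine receptor gene of monocytes rich in Ly-6C. The largest falls were those of Cd300e (-4.88, on 18 counts in mLN) and Ace (-1.92), known from monocytes poor in Ly-6C, and the median of the list was -0.56. Relative to the mean of that list, which these falls lower in mLN, Ly6c2 had a log2 ratio of 2.86 ± 0.111 in mLN and 1.13 ± 0.141 in spleen (SD, n = 3 each), a difference of 1.73 with libraries apart (exact permutation p = 0.1). Of 10 plasma-cell genes 9 were lower and none higher (541 to 562 CPM in mLN, 1234 to 1247 CPM in spleen). Of 10 tested plasmacytoid dendritic-cell genes 5 were lower and 3 higher (588 to 594 CPM in mLN, 805 to 830 CPM in spleen). Of 12 genes of memory CD8 T and NK cells, 7 were higher and 4 lower (1779 to 1813 CPM in mLN, 1302 to 1346 CPM in spleen). Within that sum, Cd8a stood at 489 CPM in mLN and 229 CPM in spleen, and Cd8b1 at 250 and 108 CPM. The 4 lower genes were Ncr1 (log2 fold change -0.951), Ccl5 (-0.575), Klrk1 (-0.478) and Tbx21 (-0.375).

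T-cell genes moved the same way as the pair. The pan-T list summed to 5272 to 5346 CPM in mLN and 2231 to 2246 CPM in spleen, and the median of its log2 fold changes was 1.15. Relative to the mean of that list, Ly6c1 stood 1.40 higher in mLN on the log2 scale (-3.81 ± 0.131 in mLN, -5.21 ± 0.177 in spleen) and Ly6c2 0.50 lower (0.00 ± 0.0697 in mLN, 0.50 ± 0.141 in spleen). Libraries were apart in both cases (exact permutation p = 0.1 for each, n = 3 per tissue). Among endothelial genes, of 9 tested, 6 were lower, none higher and 3 not called in mLN, and the 16 listed summed to 8.07 to 12.4 CPM in mLN and 21.9 to 23.9 CPM in spleen. Cdh5, the cadherin gene of endothelium, stood at 0.878 ± 0.638 CPM in mLN and 2.09 ± 0.415 CPM in spleen. Kdr, a receptor gene for vascular growth factor, was not called and had 63 counts over the mLN libraries and 35 over the spleen libraries. Emcn and Ptprb had no counts in mLN and 2 each in spleen, and Sox17 and Glycam1 had none in either tissue. The part of these cell types in the Ly-6C values was not tested.

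**Figure D2:**
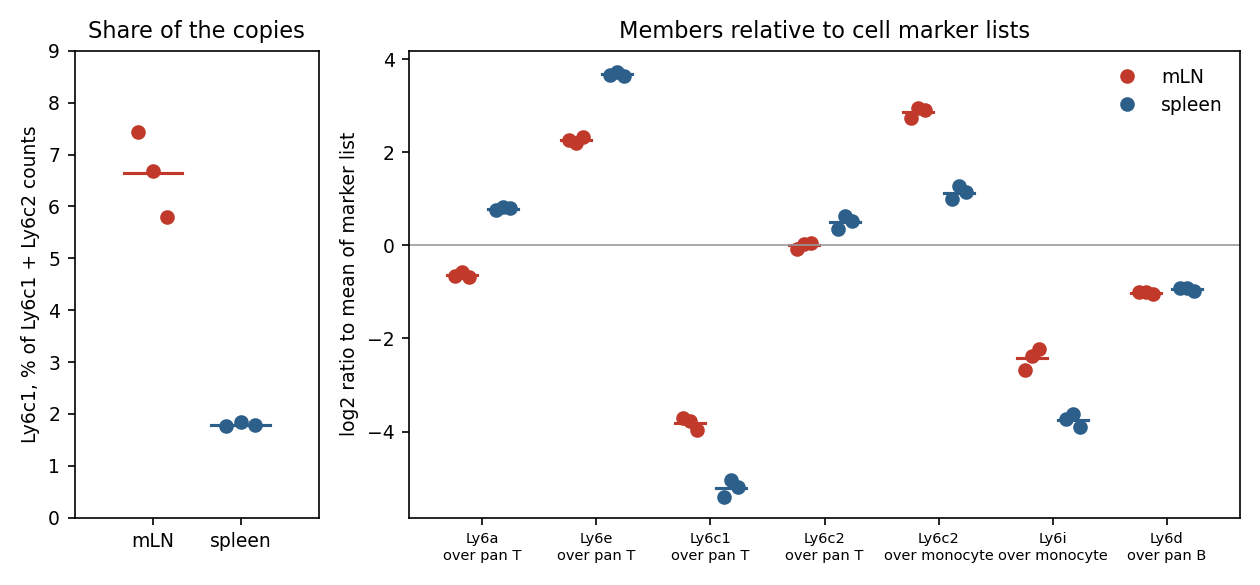
Left, Ly6c1 as a percentage of the counts of Ly6c1 and Ly6c2 together; right, log2 CPM of a member minus the mean log2 CPM of a marker list. Each point is a library, lines are means, mLN in red and spleen in blue: Ly6c1 makes up 5.80% to 7.44% of the pair in mLN and 1.76% to 1.85% in spleen, and Ly6d over the pan-B list has almost the same ratio in both tissues.

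Ly6a and Ly6e, the members known best from T cells and stem cells and from interferon responses, were slightly lower in mLN. Ly6a (chromosome 15, 74994877 to 74998031, minus strand) stood at 159, 165 and 155 CPM in mLN, against 180, 184 and 183 CPM in spleen. Ly6e (74955051 to 74959905, plus strand) stood at 1201, 1144 and 1259 CPM in mLN, against 1352, 1378 and 1317 CPM in spleen. The tissues did not overlap for either gene. The log2 fold changes were -0.18 for Ly6a (SE 0.0366, edgeR adjusted p = 4.88e-05) and -0.17 for Ly6e (SE 0.0274, edgeR adjusted p = 4.74e-06).

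These are small differences: 58.7% of all genes tested changed by at least as much as Ly6a in either direction, and 61.7% by at least as much as Ly6e. With an assumed coefficient of variation of 0.2 between libraries, neither gene was called. The values edgeR estimated were 0.055 in common over all genes, 0.0309 for Ly6a and 0.0342 for Ly6e. Against the pan-T list the gap between the tissues was larger. That list was itself higher in mLN (median log2 fold change 1.15), so any gene with little change stands lower against it there. The log2 ratio to that list was 1.43 lower in mLN for Ly6a (-0.64 ± 0.0539 in mLN, 0.79 ± 0.0316 in spleen) and 1.41 lower for Ly6e (2.27 ± 0.0611 in mLN, 3.68 ± 0.0401 in spleen; exact permutation p = 0.1 for each, n = 3 per tissue). The ratio of Ly6a to Ly6e overlapped between the tissues, with a difference of -0.02 (exact permutation p = 0.8). A list of progenitor genes, which holds Kit and Cd34 and also early granule genes such as Mpo, was lower in 10 of 10, at 17.0 to 18.5 CPM summed in mLN and 312 to 324 CPM in spleen. Their part in the Ly6a value was not tested.

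Ly6a and Ly6e are both known to rise with interferon, and an interferon response list was set beside them. Of its 40 genes, 31 were higher and 5 lower in mLN, beside 21.8% and 23.8% of all genes tested. The median of their log2 fold changes was 0.59, against a median of -0.002 over all genes tested. Ifit1, an antiviral gene, stood at 30.8 ± 4.33 CPM in mLN and 6.58 ± 0.324 CPM in spleen (log2 fold change 2.22, SE 0.124, edgeR adjusted p = 5.51e-19), and Ifi44 had a log2 fold change of 2.52. Among the 5 lower genes were the antiviral gene Rsad2 (-0.72) and the GTPase gene Gbp3 (-0.57). Ly6a and Ly6e differed in sign from the larger number of genes on the list, and Ly6c1 and Ly6c2 did not. The part of interferon in the values of these members was not tested.

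Ly6d (chromosome 15, 74762056 to 74763620, minus strand) stood at 128, 130 and 125 CPM in mLN, against 239, 238 and 224 CPM in spleen. The libraries were well apart, and the coefficient of variation within a tissue was 1.7% in mLN and 3.52% in spleen. The log2 fold change was -0.87 (SE 0.037, edgeR adjusted p = 4.82e-23). The pan-B list fell by nearly the same amount, with all 14 genes lower, a median log2 fold change of -0.81 and a summed level of 4543 to 4623 CPM in mLN and 7793 to 7925 CPM in spleen. Relative to the mean of the list Ly6d was 0.08 lower in mLN on the log2 scale (-1.02 ± 0.0318 in mLN, -0.94 ± 0.0421 in spleen, libraries apart, exact permutation p = 0.1, n = 3 per tissue). Ly6d is also known from epithelia. Of 6 epithelial genes listed, 2 passed the filter: Cdh1, the epithelial cadherin gene, was higher in mLN (8.38 ± 0.549 CPM in mLN, 3.88 ± 0.983 CPM in spleen, log2 fold change 1.11), and Epcam was not called (4.71 ± 0.137 CPM in mLN, 6.08 ± 1.5 CPM in spleen). Krt5 and Krt14 had no counts in either tissue, Krt18 had 5 counts in mLN and 37 in spleen, and Krt8 had 0 and 4. The part of such cells in the Ly6d value was not tested.

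Ly6g (chromosome 15, 75155240 to 75159126, plus strand) had no counts in the 3 mLN libraries, against 137, 113 and 103 expected counts in spleen, or 7.88, 6.88 and 6.16 CPM. Set against a floor of 3 counts over the mLN libraries together (0.0665 CPM), the gene was at least 104.9-fold lower in mLN. This floor covers counting error only, since reads carried no molecular identifiers. Neutrophil genes moved with it: 13 of 14 tested were lower, at 26.4 to 27.9 CPM summed in mLN and 1553 to 1580 CPM in spleen. S100a8, which encodes an abundant cytosolic protein of these cells, stood at 0.421 ± 0.156 CPM in mLN and 146 ± 2.66 CPM in spleen, and the granule gene Ltf had 3 counts over the mLN libraries.

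Ly6i (chromosome 15, 74979534 to 74983430, minus strand) was the weakest member in reads apart from Ly6c1 and Ly6g in their lower tissue. It stood at 5.47, 6.13 and 7.37 CPM in mLN, against 5.06, 5.30 and 4.48 CPM in spleen. The mLN libraries were all higher, but 1 of them only slightly, and the log2 fold change of 0.35 (SE 0.203) was not called (edgeR adjusted p = 0.168). In TPM, which also divides by the effective length of the transcripts, the tissues overlapped, at 9.31, 12.8 and 16.4 in mLN and 9.06, 9.51 and 10.8 in spleen. Of 11 tested macrophage genes 5 were lower and 2 higher in mLN (113 to 119 CPM summed in mLN, 148 to 158 CPM in spleen). Against the monocyte list Ly6i was 1.32 higher in mLN on the log2 scale, with libraries apart (-2.43 ± 0.226 in mLN, -3.75 ± 0.131 in spleen, exact permutation p = 0.1, n = 3 per tissue). Falls such as that of Cd300e (log2 fold change -4.88) lower the mean of that list in mLN, so a gene with little change stands higher against it there.

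On the per-length TPM scale, Ly6e was the leading member in both tissues and the order below it differed. In mLN the mean levels were 2242 ± 129 TPM for Ly6e, 640 ± 38.9 for Ly6c2, 354 ± 8.69 for Ly6a, 346 ± 5.80 for Ly6d, 47.2 ± 4.2 for Ly6c1, 12.8 ± 3.55 for Ly6i and 0 for Ly6g (SD, n = 3). Ly6a and Ly6d overlapped there and all other neighbours in the order were apart. In spleen they were 2622 ± 64.2 TPM for Ly6e, 663 ± 25.9 for Ly6d, 418 ± 7.18 for Ly6a, 399 ± 28.3 for Ly6c2, 15.7 ± 2.68 for Ly6g, 9.78 ± 0.892 for Ly6i and 8.23 ± 2.01 for Ly6c1. There Ly6a and Ly6c2 overlapped, as did Ly6i and Ly6c1. Ly6c2 was thus placed second in mLN and Ly6d second in spleen.

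The TPM summed over the 7 members was 3643 ± 144 in mLN and 4136 ± 102 in spleen. Ly6e made up 61.5 ± 1.26% of that sum in mLN and 63.4 ± 0.337% in spleen. Ly6c2 took 17.6 ± 0.649% in mLN and 9.65 ± 0.603% in spleen, while Ly6d took 9.52 ± 0.528% in mLN and 16.0 ± 0.428% in spleen. Ly6a held 9.73 ± 0.614% in mLN and 10.1 ± 0.222% in spleen, with overlapping libraries.

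**Figure D3:**
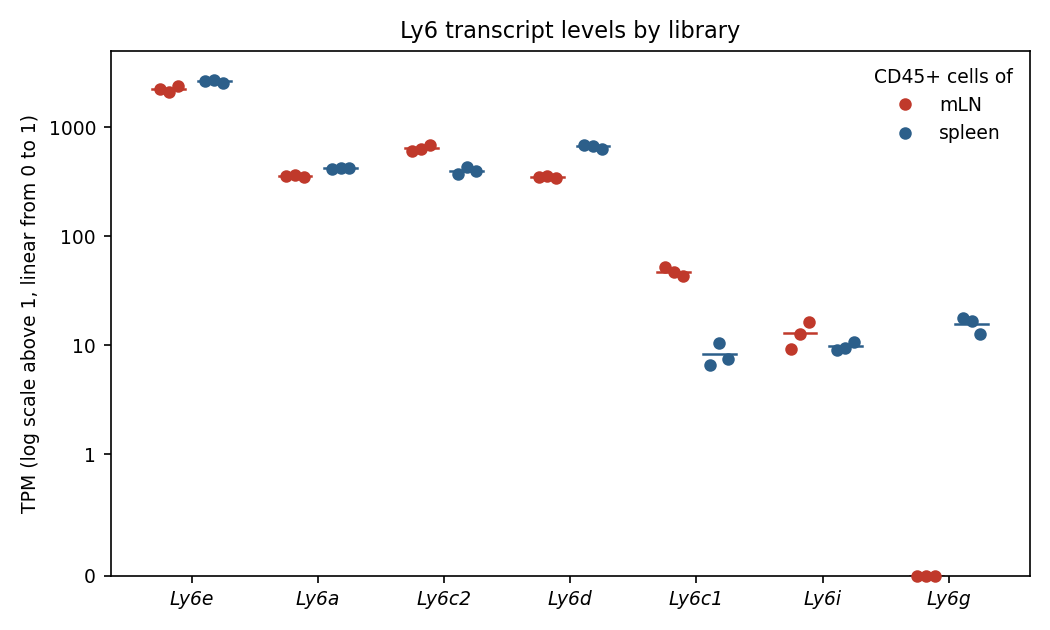
TPM of each Ly6 gene in each library (points; lines are means), mLN in red left of spleen in blue, on an axis that is logarithmic above 1 and linear below. Ly6e leads in both tissues at 2114 to 2675 TPM, Ly6c1 and Ly6c2 are higher in mLN, Ly6d is higher in spleen, and Ly6g lies at 0 in all mLN libraries.

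All 7 members lie within 397071 bases of chromosome 15, from Ly6d to Ly6g. Another 18 annotated genes lie in that span, of which 4 passed the filter and 2 were called, beside 45.5% of all genes tested. The called ones were the pseudogene I830127L07Rik (RefSeq symbol Ly6a2, 75131377 to 75135128), between Ly6c2 and Ly6g, and the noncoding gene Gm39556. I830127L07Rik had 60 counts over the mLN libraries and 560 over the spleen libraries, a log2 fold change of -3.06 (SE 0.237, edgeR adjusted p = 1.84e-14). Gm39556 had a log2 fold change of -0.69 (SE 0.228, edgeR adjusted p = 0.0114), and only 1 of these 2 neighbours was called without mLN replicate 1 or without spleen replicate 3. The Ly6-related gene Ly6k (log2 fold change 0.41, edgeR adjusted p = 0.337) was not called. Ly6c2 and I830127L07Rik, called in opposite directions, are direct neighbours in the annotation. Calls in both directions were common over all genes tested (21.8% upward, 23.8% downward), so this placing is described only.

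**Figure D4:**
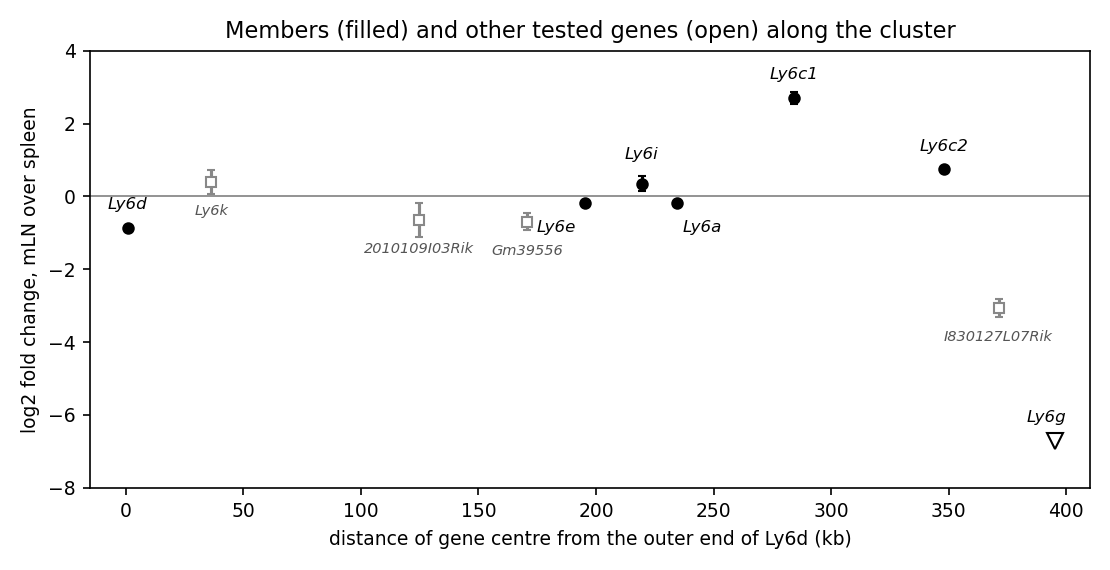
Log2 fold change, mLN over spleen, with SE, by distance of each gene's centre from the outer end of Ly6d in kb; members are filled, other tested genes open squares, and the open triangle is the bound for Ly6g. Ly6c1 (2.70) and Ly6c2 (0.745) lie next to I830127L07Rik (-3.06) and Ly6g (at or below -6.71).

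Start-site sequences were at hand for 3 members, Ly6c1, Ly6c2 and Ly6g, and are shown because these neighbours moved in opposite directions. Each window holds 250 bases before and 50 after the start site nearest to the annotated gene start, from RefSeq on GRCm38.p6. They are chr15:75048788-75049087 on the minus strand for Ly6c1, chr15:75111922-75112221 on the minus strand for Ly6c2 and chr15:75155011-75155310 on the plus strand for Ly6g. Capitals mark matches to the motifs searched.
Ly6c1: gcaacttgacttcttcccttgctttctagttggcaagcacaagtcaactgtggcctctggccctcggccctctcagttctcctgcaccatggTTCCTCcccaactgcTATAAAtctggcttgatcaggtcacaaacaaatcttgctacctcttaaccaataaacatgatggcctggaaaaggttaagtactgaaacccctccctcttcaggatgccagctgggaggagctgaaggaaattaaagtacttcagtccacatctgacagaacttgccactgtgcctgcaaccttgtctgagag
Ly6c2: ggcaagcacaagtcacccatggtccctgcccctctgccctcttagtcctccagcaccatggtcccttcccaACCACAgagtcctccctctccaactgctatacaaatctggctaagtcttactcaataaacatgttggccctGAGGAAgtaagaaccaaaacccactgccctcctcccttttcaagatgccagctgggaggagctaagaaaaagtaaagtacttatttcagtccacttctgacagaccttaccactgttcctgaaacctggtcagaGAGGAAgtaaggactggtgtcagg
Ly6g: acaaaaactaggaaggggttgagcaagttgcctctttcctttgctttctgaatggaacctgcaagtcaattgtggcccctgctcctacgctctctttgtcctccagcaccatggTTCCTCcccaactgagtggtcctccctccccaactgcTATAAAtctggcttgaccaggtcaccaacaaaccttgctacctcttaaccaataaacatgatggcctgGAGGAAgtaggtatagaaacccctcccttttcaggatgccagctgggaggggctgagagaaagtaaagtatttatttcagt
Aligned with free ends, Ly6c1 and Ly6g were 84.5% identical over 252 bases, Ly6c2 and Ly6g 80.7% over 223 bases, and Ly6c1 and Ly6c2 78.2% over 266 bases.

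The motifs were searched on both strands. TATAAA, the letters of a TATA box, stood in the windows of Ly6c1 and Ly6g and in 13.6% of 32851 such windows in the RefSeq table. Counted from the start site, it lay at -143 to -138 in Ly6c1 and at -99 to -94 in Ly6g. GAGGAA, a core bound by the myeloid and B-cell factor PU.1, stood in all 3 windows and in 28.3% of all. TGTGGT, the RUNX core, stood in that of Ly6c2 alone among the 3 and in 16.8% of all. TTCNNNGAA, a STAT motif (8.3% of all), and AAANNGAAA, a core of the interferon response element (10.6% of all), stood in none of the 3. No matches overlapped one another. A match is a description of letters and was not tied to any value above.

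By coding sequence 5 members were alike, and Ly6d and Ly6e stood apart from them and from each other. Ly6a, Ly6c1, Ly6c2, Ly6g and Ly6i shared 77.5% to 97.7% of bases with one another, and Ly6i was nearest to Ly6a (86.4%). Ly6d and Ly6e shared 52.1% to 55.5% with those 5 and 53.8% with each other. The 5 alike genes held both upward calls, the downward calls of Ly6a and Ly6g, and the uncalled Ly6i.

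Beyond the 7 members, a list of 34 further genes of the Ly6 and urokinase-receptor fold was found in the tables, and 6 of them passed the filter. Lypd6b rose in mLN, to 5.39 ± 0.898 CPM against 1.42 ± 0.598 CPM in spleen (log2 fold change 1.92, SE 0.304, edgeR adjusted p = 1.13e-06). Lynx1, known from the brain as a modulator of acetylcholine receptors, was at 19.9 ± 2.03 CPM in mLN and 49.4 ± 3.02 CPM in spleen (log2 fold change -1.31). Plaur, the urokinase receptor gene of myeloid cells, was at 21.8 ± 1.84 CPM in mLN and 45.8 ± 1.90 CPM in spleen (-1.07), and Cd59a, a complement regulator gene, had a log2 fold change of -3.10 on 7 counts in mLN and 69 in spleen. Those 3 were called as well, which made 4 calls among the 6 tested, beside 45.5% of all genes tested. Ly6k and Ly6g5b were not called. Ly6h and Gpihbp1, a lipase carrier gene of capillary endothelium, had no counts in any library.

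Of the genes listed for building, attaching and trimming the GPI anchor, 30 were found in the tables and all 30 passed the filter. Of these 6 were higher in mLN, 3 lower and 21 not called, a called share of 9 in 30 beside 45.5% of all genes tested, and the median log2 fold change was 0.05. The list summed to 1034 to 1052 CPM in mLN and 1029 to 1067 CPM in spleen, which overlap. Pigq was lower (-0.57, edgeR adjusted p = 3.16e-12), as were Pgap1, which trims the lipid (-0.47), and Dpm2. Pigw was higher (0.57, edgeR adjusted p = 0.000875), as was Piga, the X-linked gene of the first step (0.48). Gpld1, which encodes a lipase that cuts anchored proteins loose, had the next to largest rise of the list at a low level (1.41 ± 0.676 CPM in mLN, 0.535 ± 0.376 CPM in spleen, with overlapping libraries).

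The genes whose pattern over the 6 libraries was most like that of each called member were found by the root mean square difference of centred log2 CPM, among 8896 genes with a mean of at least 10 CPM. With 2 tissues this likeness is mostly that of the tissue difference. Nearest to Ly6c1 were Pdlim4, Spsb1 and Cacnb3 (differences of 0.156, 0.190 and 0.195), and no gene came within 0.1. Among the nearest to Ly6c2 were Ddr1 (0.0533) and Rapgef6 (0.0592). Ly6d lay closest to Srpk3, Dok3 and Siglecg (0.0218 to 0.0283), with 126 genes within 0.1. Ly6e lay closest to Inpp5d, Gnas and Dvl3 and Ly6a to Pde1b, Rbm43 and Clcn3, with 1657 and 1798 genes within 0.1. For Ly6g the nearest were the red-cell genes Ermap, Alas2 and Hba-a2 (0.182 to 0.386), where the prior count added to zero values sets much of the profile.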

How the data were processed

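Per the submitters' processing notes, the authors used STAR and RSEM with build mm10; the sources used here give no versions, read length, transcript annotation or strand setting. The authors deposited for each library an expected count per gene, a model-based estimate that splits shared reads and need not be whole, with TPM (per effective length, summing to 1000000) and the effective length. Identifiers were given symbols and coordinates from GENCODE M21 (GRCm38), which matched 55141 of 55487. Members and gene lists were chosen with earlier results of these data known.

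Expected counts were rounded, genes kept with filterByExpr (14427), libraries scaled with TMM factors and tested with edgeR 4.0.16 (quasi-likelihood, robust, tissue only) in R 4.3.3. The Benjamini-Hochberg adjustment ran over every gene tested, with 0.05 as the threshold of a call. Fold changes are mLN over spleen. SE were taken from the F statistic. CPM are TMM-scaled. Ratios used log2 CPM with a prior count of 2 and exact two-sided permutation over 20 assignments. Alternatives were DESeq2 1.42.0, limma 3.58.1 on log2(TPM + 0.5), other scalings and filters, a length offset, a replicate term and leaving out each library. Genes were named by a rule: the members, and from each list up to 2 called genes that rose most and 2 that fell most, at 1 CPM or more in the higher tissue, with some fixed names; marker lists are given mainly by counts. Piga, Dpm2, Ly6k, Ly6g5b, Ccr2, Kdr, Emcn, Ptprb, Sox17, Glycam1, Epcam, Krt5, Krt14, Kit, Cd34, Mpo and the neighbours fall outside it and were chosen after their values were seen, and some genes it names are not reported here. The family list also held 9530003J23Rik, whose place in the family is uncertain and which had no counts. Precision rests on 12584244 to 18119551 counts per library.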

Additional observations from a re-analysis of the deposited data

How the results depend on the processing

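All 7 members kept their direction under all 17 alternatives run for each of them. Calls of members were lost only under coefficients of variation assumed for every gene, an alternative chosen after seeing the data. At 0.2 Ly6e (-0.17, adjusted p = 0.808) and Ly6a (-0.19, adjusted p = 0.773) were not called; at 0.4 neither were Ly6e (-0.17), Ly6a (-0.19), Ly6d (-0.87, adjusted p = 0.435) and Ly6c2 (0.74, adjusted p = 0.642), which left 2 members, Ly6c1 and Ly6g. The count of all genes called was 6569 as reported, 4687 with the effective-length offset and 4377 with limma on TPM. It was 2868 at 0.2 and 923 at 0.4. The count of further family genes was 2 at 0.4. That of GPI genes was 2 and 0, and that of interferon genes 21 and 5, at 0.2 and 0.4. The 0 GPI calls at 0.4 compare with 9 by edgeR and 8 to 9 on leaving out a library. Of the chromosome neighbours 1 was called with the effective-length offset, at 0.2 and at 0.4, and 1 to 2 on leaving out a library. The log2 ratio of Ly6g to the neutrophil list was 0.29 higher in mLN with a prior count of 2 and -1.21 with 0.5, so no direction was read from it. That of Ly6a to Ly6e ran from -0.077 to 0.037 on leaving out a library. The cause of these changes was not tested. Median shifts of all genes stayed within -0.051 to 0.001 under every scaling. Deviations of same-numbered libraries correlated at -0.0081 to 0.0275 and those of other pairs of mLN and spleen libraries at -0.0394 to 0.0123. With 3 libraries per tissue these values cannot decide whether replicate numbers pair the libraries. With the replicate block the log2 fold changes were 2.69 for Ly6c1, 0.75 for Ly6c2 and -0.87 for Ly6d, and all 6 member calls were kept. Depth limits Ly6g in mLN, where 0 counts allow up to 0.0665 CPM.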

Other observations

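The effective length that the authors' estimates gave for Ly6i, which has transcripts of 620 and 1156 bases, was 847, 690.0 and 645 bases in mLN and 823, 826 and 619 bases in spleen. The 82, 109 and 91 expected counts in mLN and 88, 87 and 75 in spleen were divided by these lengths, and the highest Ly6i TPM in each tissue belonged to the library with its shortest length. For Ly6c1 the highest spleen value, 10.5 TPM, likewise came from the library with the shortest effective length there, 432 bases against 541 and 537 in the others. Mean fragment lengths implied by the tables were 213.4 to 217.0 bases in mLN libraries and 219.2 to 230.0 bases in spleen libraries, and the part of this gap in the values was not tested.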
